A study of Danio rerio with 9 samples.

Results

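The eyes compared were those of wild-type zebrafish larvae at 3 and 4 days post fertilization (dpf), and the question was which transcripts changed over that day, in either direction. Each age had 3 arrays of the Affymetrix Zebrafish Genome Array, labelled only as whole eye and a replicate number. These 6 arrays are all those of the 2 ages among the 9 of the series, and the other 3 are eyes at 5 dpf. The study's methods describe dissected eyes at 3 and 5 dpf with biological replicates and do not describe the 4 dpf arrays, so p-values measure the spread between arrays, which may be technical at 4 dpf. The sources used here give no strain, light cycle, time of day or number of larvae per array. The measurement is the log2 signal of a probe set, a group of short probes designed for 1 transcript, so a difference of 1 is a 2-fold difference. The study found that part of the probes on this array match several places in the genome or none. The original probe sets used here keep such probes, so a signal need not be specific to 1 transcript. Differences are 3 dpf minus 4 dpf throughout unless written otherwise, with the standard error (SE) of the fit.

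In the days after hatching the zebrafish eye goes from a newly layered retina to a working one. Rods and cones, the light-sensing photoreceptors, extend outer segments filled with the phototransduction cascade, in which an opsin activates transducin, transducin activates phosphodiesterase 6 and falling cyclic GMP closes a channel. The retinal pigment epithelium and Müller glia supply the retinoid that opsins use. Stem cells stay at the retinal margin, and cartilage, jaw and eye muscles, and skin form around the eyeball from cranial mesenchyme, mesoderm and ectoderm.

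Most defining eye markers were bright at both ages. The retinal pigment epithelium gene rpe65a had mean signals of 13.35 and 14.18 at 3 and 4 dpf, the cone phosphodiesterase pde6c 13.36 and 14.04, the cone transducin gnat2 13.17 and 13.61, the bipolar cell factor vsx1 12.72 and 12.30, and the Müller glia gene rlbp1a 11.75 and 11.90. The melanin enzyme gene tyr was dim at 2.88 and 3.62, although its relative dct was at 11.72 and 11.92. Of the 56 markers of eye and other cell types, 42 were measured by a probe set with 1 gene symbol. Markers of other tissues were also bright at 3 dpf, such as matn1 of cartilage at 12.89, krt4 of skin at 13.71 and ckma of muscle at 9.99, while mpx of neutrophils, hoxb4a and hoxa9a were at most 3.10 on every array.

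Array medians ran from 5.75 to 5.79 at 3 and 4 dpf. The lowest signals were 0.95 to 1.00 at 4 dpf against 1.09 to 1.12 at 3 dpf. Pairs of 4 dpf arrays shared 48 to 114 exactly equal values, whereas no other pair of arrays shared any. The bacterial spike-in BioB was also brighter at 4 dpf (6.30 to 6.70) than at 3 dpf (5.59 to 6.14). Such differences in handling or processing cannot be told apart from age. The 3′ minus 5′ signal of the GAPDH control, a measure of RNA integrity and amplification, was 2.61 to 2.90 at 3 dpf and 2.40 to 2.71 at 4 dpf. For the actin control acta1 it was 10.39 to 11.17 at 3 dpf and 7.63 to 8.53 at 4 dpf, so that the ages did not overlap in this control. The muscle actin gene acta1a itself had means of 9.54 at 3 dpf and 5.87 at 4 dpf. In this control, RNA integrity and the level of the transcript therefore cannot be told apart, and its part in the results was not tested. In whole eyes, fewer cells of a type and less RNA per cell cannot be told apart either, and this holds for every result that follows.

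Between 3 and 4 dpf, 509 of 15502 probe sets changed by at least 2-fold at an adjusted p under 0.05 (3.28%). Of these, 258 were higher at 3 dpf (1.66%) and 251 were higher at 4 dpf (1.62%). The 3 arrays of one age did not overlap the 3 of the other in any of the 509, which was also so for 46.8% of all probe sets. The median difference was 1.58 among probe sets higher at 3 dpf and -1.31 among those higher at 4 dpf, and 77 of the former and 32 of the latter differed by at least 2. At 3 dpf the median signals of the 2 groups of probe sets were 6.96 and 7.15, and at 4 dpf they were 4.89 and 8.72. At 4 dpf, 87 of the 258 had mean signals under 4, near the floor of the array, whereas 21 of the 251 were under 4 at 3 dpf. With signals under 4 set to 4 the counts were 157 and 129. That setting also lost calls of genes with no signal under 4, such as clul1 and ckma. Without any 1 of 3 dpf replicates 2 or 3 or of the 4 dpf arrays, 131 to 149 were called higher at 4 dpf. Of the 509, 382 carried 1 gene symbol and came from 356 genes, 211 higher at 3 dpf and 145 higher at 4 dpf. Counted once per gene by its brightest probe set, as in the gene lists that follow, 338 of 8793 genes were called (3.84%). Of all genes, 2.24% were called higher at 3 dpf and 1.60% higher at 4 dpf, the shares beside which each list count stands. The arrays of the 2 ages did not overlap in 43.7% of genes. Another 121 called probe sets had no symbol, among them the probe set with the lowest difference of all, -4.53.

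**Figure D1:**
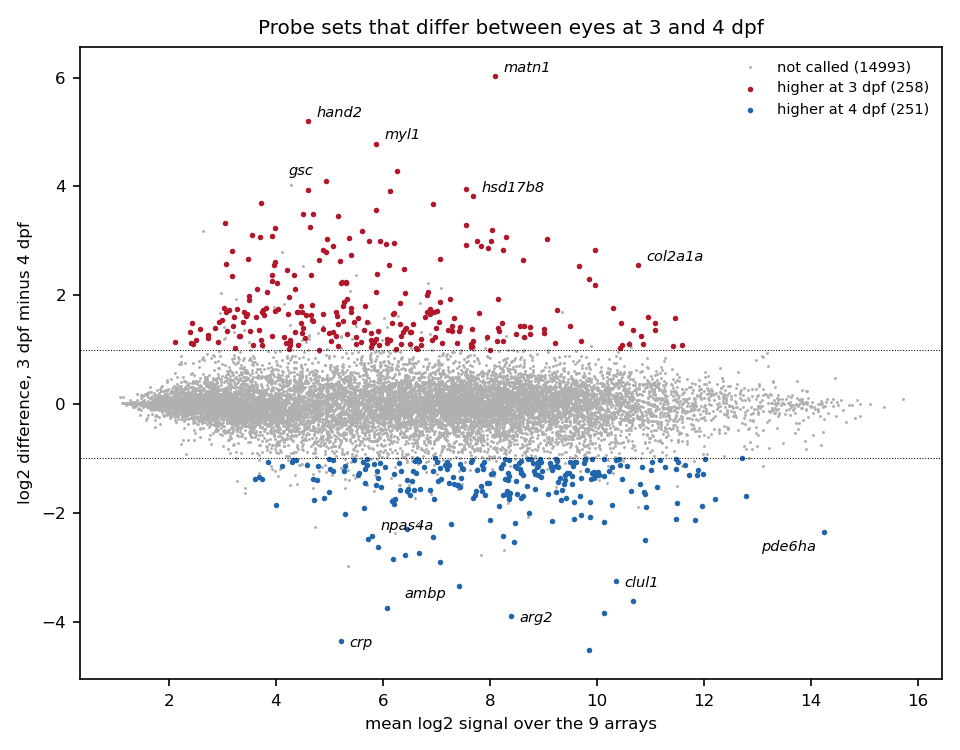
Each point is 1 of 15502 probe sets, with the mean log2 signal over the 9 arrays on the x axis and the log2 difference, 3 dpf minus 4 dpf, on the y axis. The 258 probe sets called higher at 3 dpf (red) have a median difference of 1.58 and the 251 called higher at 4 dpf (blue) one of -1.31, with matn1 at 6.03 and crp at -4.35 among the labelled genes, and dotted lines mark 2-fold.

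Transcription factors of the pharyngeal arches and head mesenchyme, the tissue that builds the jaw and the skeleton around the eye, were among the transcripts lost most fully by 4 dpf. Of 39 measured, 13 fell from 3 to 4 dpf (33.3%, against 2.24% of all 8793 genes) and none rose. The median difference of the list was 0.55 and that of all genes -0.02. The factor hand2, required for the ventral jaw skeleton in zebrafish, had signals of 8.60, 8.35 and 7.46 at 3 dpf and of 2.96, 2.93 and 2.89 at 4 dpf. All 4 dpf arrays lay at the level of an unexpressed transcript, and the fall was 5.21 (SE 0.26, adjusted p = 0.00012). The homeobox gene gsc, also active in arch mesenchyme, had 7.79, 7.15 and 7.26 at 3 dpf against 3.44, 3.23 and 3.24 at 4 dpf, a difference of 4.10 (SE 0.28, adjusted p = 0.00047). Next came six2a, a homeobox gene of head and kidney mesenchyme in vertebrates, with a difference of 3.08 (SE 0.11, adjusted p = 2.2e-05). Distal-less genes that pattern the arches fell as well, dlx2a by 2.75 (SE 0.41, adjusted p = 0.0076) and dlx6a by 2.57 (SE 0.20, adjusted p = 0.00083). Both dlx6a and hand2 were near their lowest level on every 4 dpf array, between 2.20 and 2.96. Many of these factors were dim at 4 dpf, and 8 of the 13 were called with signals under 4 set to 4. When only probe sets with a mean signal of at least 5 over the 9 arrays were tested, 3 were called. That mean includes the 4 and 5 dpf arrays, so factors low at those ages could be left out untested.

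At 5 dpf hand2 was at 2.77, 2.73 and 2.81 and gsc at 4.46, 4.40 and 3.48. Neither differed between 4 and 5 dpf, with adjusted p = 0.75 for hand2 and 0.14 for gsc. The comparison of 4 with 5 dpf shares the 4 dpf arrays with that of 3 with 4 dpf, so its values are given side by side only.

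Hox genes, which give hindbrain and trunk cells their position, were mostly at the floor on all arrays, with list means between 2.31 and 2.57. Of 42 measured, 3 were called, all higher at 3 dpf (7.14%, against 2.24% of all genes). For hoxb3a, a gene of the hindbrain and posterior arches, the signals were 6.56, 4.96 and 6.62 at 3 dpf against 2.74, 2.97 and 2.76 at 4 dpf, a difference of 3.23 (SE 0.43, adjusted p = 0.0053). Lower in signal were hoxd4a, with a difference of 1.24, and hoxa2b of the hyoid arch, with 1.21. None of the 3 was called with signals under 4 set to 4. A dimmer probe set of hoxc8a, not counted here, was also called, with means of 4.42 at 3 dpf and 2.76 at 4 dpf (adjusted p = 0.024), while its other probe sets differed by 0.03 and 0.00. Without 3 dpf replicate 2, which had the lowest hoxb3a signal at that age, 5 Hox genes were called.

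Of 39 cartilage and bone genes, 11 fell (28.2%) and none rose, while 28 were not called, 14 had a higher mean at 4 dpf and the median difference was 0.19. The largest difference of all named transcripts was that of matn1, which encodes matrilin 1 of cartilage matrix. Its signals were 12.49, 13.02 and 13.17 at 3 dpf and 6.48, 8.43 and 5.67 at 4 dpf, a fall of 6.03 (SE 0.63, adjusted p = 0.0023). The 4 dpf arrays were spread more widely than the 3 dpf arrays, and every one lay far below every 3 dpf array. At 5 dpf matn1 was at 4.32, 4.68 and 4.59, and its difference between 4 and 5 dpf, 2.33, did not pass the threshold (adjusted p = 0.069).

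The link protein gene hapln1a, whose product ties hyaluronan to cartilage proteoglycan, went from 9.12, 8.99 and 9.24 to 5.25, 5.32 and 5.03, a difference of 3.92 (SE 0.32, adjusted p = 0.00098). Of its 6 probe sets, 3 were called, at 3.92, 3.11 and 3.08, and the other 3, all with mean signals of 2.05 to 3.31, were between -0.17 and -0.02. The main fibrillar collagen of cartilage, col2a1a, stayed bright while it fell. Its signals were 12.37, 12.65 and 13.04 at 3 dpf and 9.95, 10.42 and 10.03 at 4 dpf, which is a difference of 2.55 (SE 0.24, adjusted p = 0.0016). Its fibril partner col9a3 fell by 2.29 (SE 0.17, adjusted p = 0.0007), and cnmd, which encodes the cartilage glycoprotein chondromodulin, by 2.65 (SE 0.39, adjusted p = 0.0074). The second probe set of cnmd differed by 3.20. The count of 11 was between 9 and 12 whichever array was left out.

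Among 49 collagens and other matrix genes, 12 were higher at 3 dpf (24.5%) and 1 was higher at 4 dpf, with a median of 0.29. Called differences ran from 1.03 to 1.87. The largest were those of the fibrillar collagen col5a2a at 1.87 (SE 0.15, adjusted p = 0.00083), the matrix metalloproteinase mmp2 at 1.86 (SE 0.15, adjusted p = 0.00083), the collagen cross-linking enzyme loxl2b at 1.77 and the periostin gene postnb at 1.49. Both probe sets of mmp2 and of postnb were called. The means of loxl2b were 4.19 at 3 dpf and 2.42 at 4 dpf, so most of its fall lay under 4. The small proteoglycan decorin, dcn, fell by 1.40 (SE 0.35, adjusted p = 0.04), whereas its relative biglycan, bgnb, rose by 1.24 (SE 0.28, adjusted p = 0.029). For bgnb the signals were 6.28, 5.59 and 6.26 at 3 dpf and 7.67, 6.99 and 7.17 at 4 dpf, so the 2 relatives moved in opposite directions. The dcn call was lost without any 1 of the 6 arrays of 3 and 4 dpf (adjusted p up to 0.12), and that of bgnb without any of these but 3 dpf replicate 1 (up to 0.089). The 12 calls were 5 without 3 dpf replicate 3, 7 without 3 dpf replicate 2, and 6 or 7 without any 1 of the 4 dpf arrays. With signals under 4 set to 4 they were 5.

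Another matrix gene, spon2b, encodes a secreted spondin. It lies outside the naming rule and was picked after its values were seen, because it is the called gene whose probe letters are held in the sources used here. Its signals were 7.49, 8.19 and 7.78 at 3 dpf and 4.36, 5.26 and 4.84 at 4 dpf, so that the ages did not overlap. The difference was 3.00 (SE 0.28, adjusted p = 0.0014), and at 5 dpf the signals were 4.33, 4.60 and 4.92. To show what a log2 signal on this array is read from, 3 of the 13 probes listed for its single Affymetrix probe set are printed here, 1 from each of the 3 sets into which the table divides them. They are designed probes of 25 bases, from the study's remapped probe table, written as that table orders them, and the gene lies on chromosome 14.
spon2b probe at target position 1574: acccgttatattcacatgcatcctg
spon2b probe at target position 1644: gtatccctgacaactgtgtgtgaat
spon2b probe at target position 1951: ggagttcaactgattttgttttcac
The position counts bases along the transcript sequence the array was designed from. GCRMA, the authors' summary, joins such probes into 1 value per array.

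Genes of the endoplasmic reticulum, where secreted proteins are folded and modified, had mostly higher signals at 3 dpf. Of 93 measured, 16 fell (17.2%) and none rose, and 83 had a difference above 0 (89.2%, against 46.9% of all genes). The median was 0.52. The calcium-binding rcn3 had 8.32, 6.83 and 7.52 at 3 dpf against 4.27, 3.32 and 3.30 at 4 dpf, a difference of 3.93 (SE 0.42, adjusted p = 0.0024). The collagen chaperone fkbp10b went from 7.03, 7.60 and 7.39 to 4.18, 4.59 and 4.53, a difference of 2.90 (SE 0.25, adjusted p = 0.0011). The others in the top 5 were the retention receptor kdelr3 at 2.06 (SE 0.10, adjusted p = 0.00012), the prolyl isomerase fkbp9 at 1.93 (SE 0.17, adjusted p = 0.0012) and the collagen lysyl hydroxylase plod1a at 1.75 (SE 0.18, adjusted p = 0.0022). A gene of a related step, the collagen prolyl hydroxylase p4ha1b, fell by 1.52 (SE 0.21, adjusted p = 0.0063). Of these, fkbp9 also differed between 4 and 5 dpf, by a further 1.08 (adjusted p = 0.013), while fkbp10b did not pass at 0.98 (adjusted p = 0.06). Between 14 and 19 members were called whichever array was left out. The part that the fall of the cartilage and matrix lists plays in this result was not tested.

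Muscle genes were the group with the largest share of calls. Of 46 sarcomere genes, 23 fell (50.0%) and none rose, and the median difference of the whole list was 1.64. Its mean signal was 6.11 to 6.43 on the 3 dpf arrays and 4.65 to 4.70 on the 4 dpf arrays. The fast myosin light chain gene myl1 had signals of 9.64, 8.88 and 9.01 at 3 dpf and of 4.53, 4.31 and 4.32 at 4 dpf, a difference of 4.79 (SE 0.30, adjusted p = 0.00031). The alpha actins actc1a and acta1a fell by 3.95 (SE 0.39, adjusted p = 0.0019) and 3.67 (SE 0.30, adjusted p = 0.001). They were still at 5.24 to 6.53 at 4 dpf, above the floor. Troponins, which make the thin filament sensitive to calcium, fell by similar amounts, tnni2b.1 by 3.56 (SE 0.48, adjusted p = 0.0056) and tnnt3a by 3.50 (SE 0.14, adjusted p = 4.6e-05). The Z-disc protein gene actn3b fell by 3.50 (SE 0.67, adjusted p = 0.017) and the troponin tnnc2.2 by 3.28 (SE 0.77, adjusted p = 0.034).

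Of these muscle genes, actn3b and tnnc2.2 had wide spread at 5 dpf, where tnnc2.2 ran from 4.59 to 7.90. The actn3b call was lost without 3 dpf replicate 1 or 3 or any 1 of the 4 dpf arrays (adjusted p up to 0.067), and that of tnnc2.2 without any 1 of the 6 arrays (up to 0.11). For the muscle markers mylpfa and tnnt3b the falls of 2.86 and 3.00 were called whichever array was left out. The list count lay between 17 and 24.

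Of 47 genes of muscle calcium handling and energy supply, 13 fell (27.7%) and none rose, and the median was 0.16. The creatine kinase gene ckmb went from 10.32, 9.81 and 10.25 to 7.07, 7.13 and 6.99, a difference of 3.06 (SE 0.40, adjusted p = 0.0048). The calcium pump gene atp2a1 fell by 2.99 (SE 0.52, adjusted p = 0.012), the parvalbumin pvalb2 by 2.94 (SE 0.67, adjusted p = 0.031), ckma by 2.84 (SE 0.63, adjusted p = 0.029) and the sarcoplasmic reticulum protein gene srl by 2.24 (SE 0.31, adjusted p = 0.0061). Calls of pvalb2 and ckma were lost without any 1 of the 6 arrays (adjusted p up to 0.1). The 13 calls were 7 without 3 dpf replicates 1 or 3 or 4 dpf replicates 1 or 2 and 6 without 4 dpf replicate 3, with 1 array left out at a time.

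Further muscle-linked genes sat in other lists. The glycolytic enzymes aldoab and pgam2, muscle forms in vertebrates, fell by 2.55 (SE 0.37, adjusted p = 0.007) and 1.26 (SE 0.18, adjusted p = 0.0062), while 60 of 63 glycolysis and citrate cycle genes were not called and eno1b, an enolase gene, rose by 1.06 (SE 0.25, adjusted p = 0.035). The eno1b call was lost without 3 dpf replicate 1 or 3 or any 1 of the 4 dpf arrays (adjusted p up to 0.11). The mitochondrial ADP/ATP carrier slc25a4 fell by 2.11 and the muscle acetylcholine receptor subunit chrna1 by 1.23. Both calls were lost without any 1 of the 4 dpf arrays, and that of chrna1 also without 3 dpf replicate 1 or 3 (adjusted p up to 0.07 for slc25a4 and 0.092 for chrna1).

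**Figure D2:**
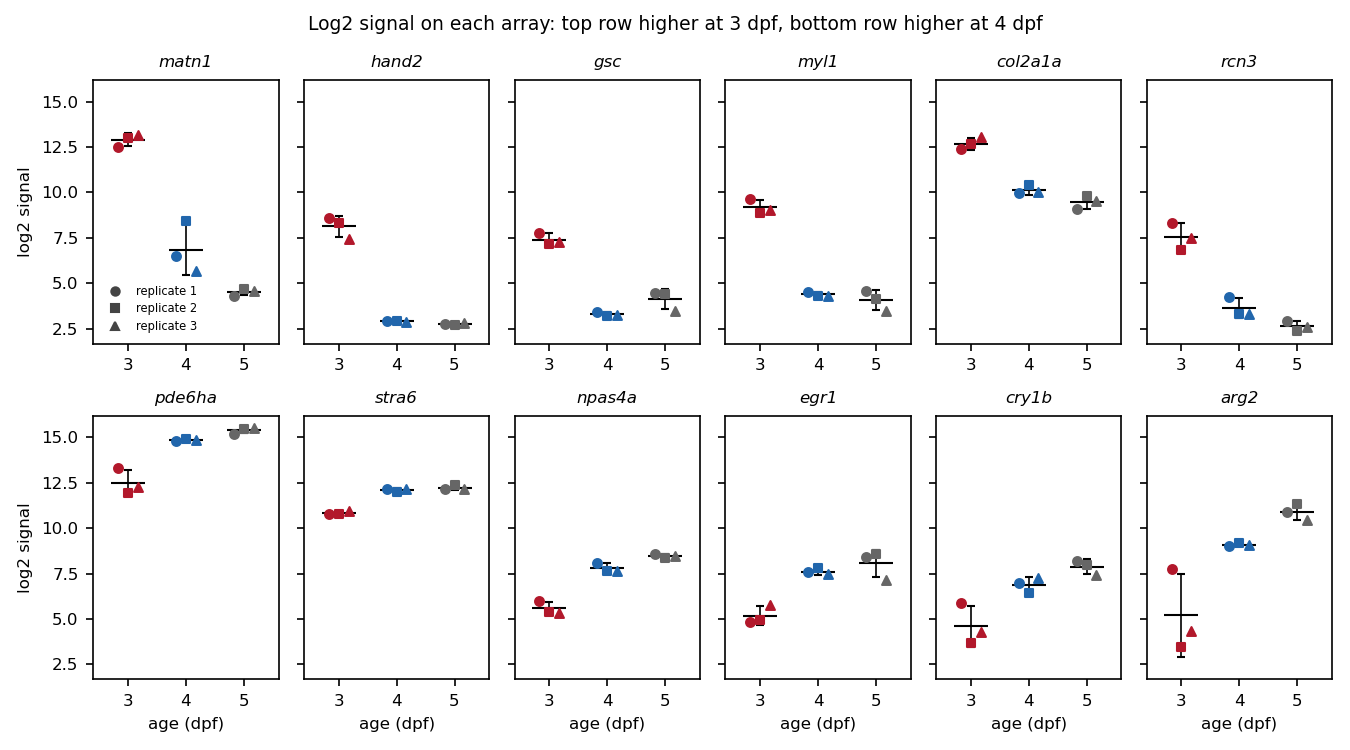
Log2 signal of 12 genes on each of the 9 arrays by age in dpf, with symbols for the replicate number and bars for the mean and SD of 3 arrays. In the top row every 3 dpf array lies above every 4 dpf array (matn1, 12.49 to 13.17 against 5.67 to 8.43), and in the bottom row every one lies below. Replicate 1 is the highest of the 3 dpf arrays in genes of both rows, among them hand2, gsc, myl1, rcn3, pde6ha, npas4a, cry1b and arg2.

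In the surface epithelium 4 of 54 genes were higher at 3 dpf (7.41%, against 2.24% of all genes). There 1 was higher at 4 dpf, and the median was 0.32. The secretory cell gene agr2 fell from 7.34, 7.17 and 7.25 to 4.62, 4.30 and 4.46, a difference of 2.79 (SE 0.21, adjusted p = 0.0007), and by another 1.33 to 5 dpf (adjusted p = 0.013). The desmosome gene pkp1b fell by 1.76, the membrane protease st14a by 1.5 and the adhesion protein epcam by 1.38, of which epcam lost its call without any 1 of the 3 dpf arrays or 4 dpf replicates 2 or 3 (adjusted p up to 0.088). In the other direction the keratin krt97 rose from 10.41, 10.34 and 9.83 to 12.26, 12.26 and 12.43, by 2.12 (SE 0.19, adjusted p = 0.0013). The skin keratins krt4 and krt5 differed by 0.71 and 0.16 and were not called. Outside this list, and picked after their values were seen, the keratin genes krt1-19d and krt1-19e were called higher at 3 dpf. They fell by 1.71 (SE 0.43, adjusted p = 0.042) and 1.61 (SE 0.38, adjusted p = 0.033).

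The list median of 113 signalling genes of the Wnt, bone morphogenetic protein and fibroblast growth factor pathways was 0.04. Of them 5 were called, all higher at 3 dpf (4.42%, against 2.24% of all genes). These were the Wnt receptor fzd10 at 1.81 (SE 0.25, adjusted p = 0.0062), the Wnt effector lef1 at 1.55 (SE 0.10, adjusted p = 0.00038), the extracellular bone morphogenetic protein regulator bmper at 1.51 (SE 0.25, adjusted p = 0.011), the ligand fgf10a at 1.25 (SE 0.14, adjusted p = 0.0025) and the activin antagonist fsta at 1.08 (SE 0.27, adjusted p = 0.041). The 4 dpf signals of lef1 and fgf10a were all under 2.9. With signals under 4 set to 4, 2 of the 5 were called, and the differences of fgf10a and lef1 were 0.15 and 0.05 (adjusted p = 0.74 for both). The fsta call was lost without any 1 of the 6 arrays of these ages or 5 dpf replicate 3 (adjusted p up to 0.12).

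Of 95 genes of the sterol, fatty acid and lipid transport list, 4 fell (4.21%, against 2.24% of all genes) and 1 rose, with a median of -0.06. The 4 were hsd17b8, angptl7, elovl7a and apoea, the last of which is also in the liver list below. For hsd17b8, a hydroxysteroid dehydrogenase gene, the signals went from 10.56, 10.21 and 11.11 to 6.90, 7.07 and 6.44, and on to 5.59, 5.84 and 5.44 at 5 dpf. Its difference was 3.82 (SE 0.26, adjusted p = 0.00038) and that between 4 and 5 dpf 1.18 (adjusted p = 0.036), while its other probe set differed by -0.09. The iron-binding melanotransferrin meltf fell by 3.70 (SE 0.28, adjusted p = 0.00071), from 5.75 to 6.92 on the 3 dpf arrays to 2.39 to 2.63. The secreted angptl7, abundant in the cornea of mammals, fell by 1.66 (SE 0.08, adjusted p = 0.00012) and the fatty acid elongase elovl7a by 1.47. The glucose transporter family member slc2a10 fell by 1.64 (SE 0.08, adjusted p = 0.00012), with 4 dpf signals of 2.88 to 3.03, and by 0.59 with signals under 4 set to 4, where its call was lost.

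Photoreceptor genes had the largest share of calls higher at 4 dpf among the 43 lists. Of 37 phototransduction genes, 9 were higher at 4 dpf (24.3%, against 1.60% of all genes) and none was higher at 3 dpf. In 35 of the 37 the 4 dpf mean was above the 3 dpf mean, and the median difference was -0.62. The list means of the arrays were 9.46 to 9.62 at 3 dpf and 10.19 to 10.38 at 4 dpf. The cone phosphodiesterase inhibitory subunit pde6ha had 13.28, 11.95 and 12.26 at 3 dpf and 14.81, 14.89 and 14.84 at 4 dpf, a rise of 2.35 (SE 0.31, adjusted p = 0.0048). Its brightest probe set was near the top of the scale of the array, and its other probe set differed by -0.74 and was not called.

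Regulators of guanylate cyclase, which restore cyclic GMP after light, rose by 1.86 for guca1c (SE 0.28, adjusted p = 0.0081) and by 1.51 for guca1b (SE 0.22, adjusted p = 0.0067). For guca1b the signals were 7.88, 7.17 and 7.45 at 3 dpf and 9.21, 8.73 and 9.07 at 4 dpf. The transducin-binding phosducin pdca rose by 1.69 (SE 0.40, adjusted p = 0.035), the rod phosphodiesterase pde6a by 1.43 (SE 0.29, adjusted p = 0.02) and the rod transducin gnat1 by 1.01 (SE 0.21, adjusted p = 0.021). The other probe set of gnat1, with means of 10.77 at 3 dpf and 11.48 at 4 dpf, differed by -0.71 and was not called. The cone genes pde6c and gnat2 differed by -0.68 and -0.44 and missed the 2-fold limit, and gnat2 also missed the p threshold (adjusted p = 0.061). In both, the arrays of the 2 ages did not overlap, which was also so for 43.7% of all genes. The other, dimmer probe set of gnat2 differed by -0.57 and passed the p threshold (adjusted p = 0.011) but not the 2-fold limit. The difference between rod and cone genes was not tested.

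For the transcription factors that set photoreceptor identity the list is short, and with 3.84% of all genes called it could well hold no call. None of 16 was called, with a median of -0.03, and the highest in signal were neurod1 at a difference of -0.06 and crx at 0.00. Of the 9 phototransduction calls, 5 were made without 3 dpf replicate 2 or 3 or 4 dpf replicate 1 or 3, with 1 array left out at a time, and the calls of pdca, pde6a and gnat1 were lost without each of these arrays, that of pdca also without 4 dpf replicate 2 or 5 dpf replicate 2 (adjusted p up to 0.11, 0.073 and 0.077). Between 4 and 5 dpf none of these 6 called genes passed the test, and guca1b, with 5 dpf higher by 0.54, differed most.

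**Figure D3:**
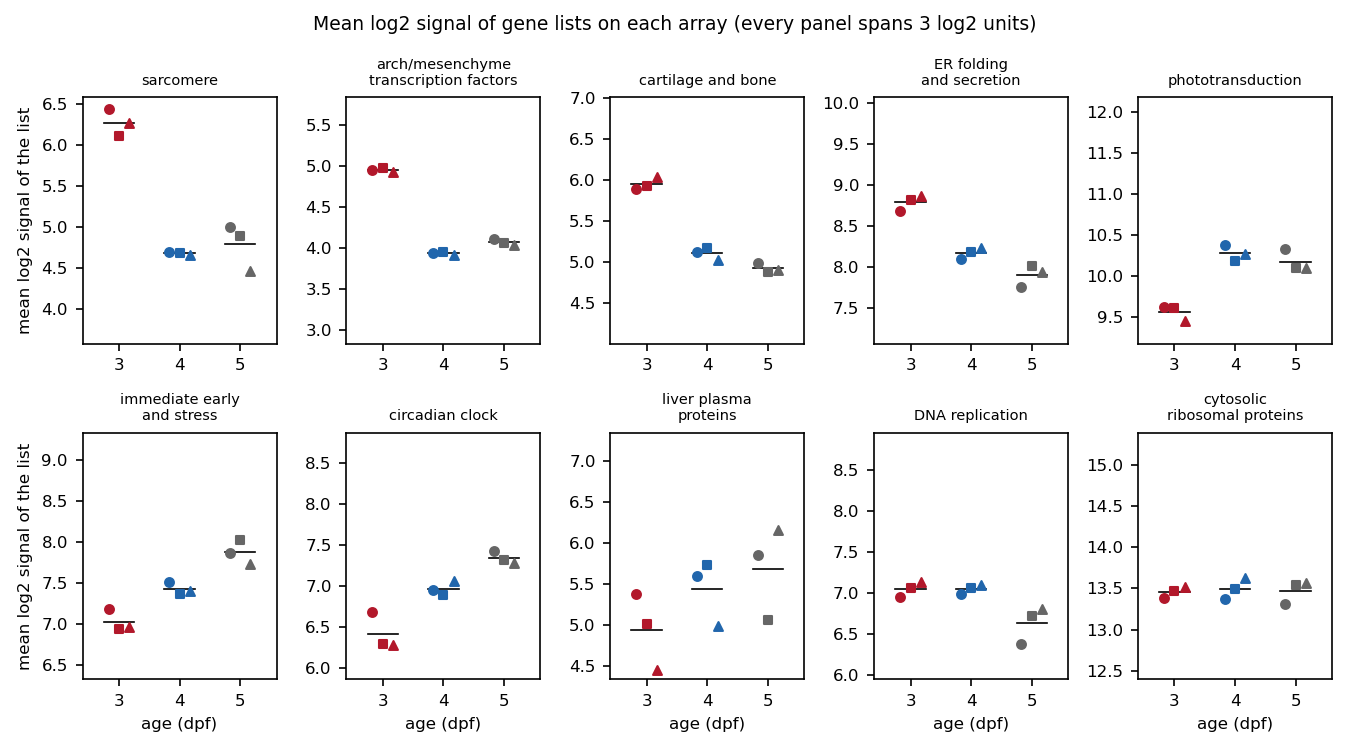
Mean log2 signal of 10 gene lists on each array by age in dpf, with 1 point per array, symbols for the replicate number and a line for the mean of 3 arrays, and every panel spanning 3 log2 units. Sarcomere genes go from 6.11 to 6.43 at 3 dpf to 4.65 to 4.70 at 4 dpf, phototransduction genes from 9.46 to 9.62 to 10.19 to 10.38, while DNA replication genes overlap between 3 and 4 dpf (6.95 to 7.14 against 6.99 to 7.10).

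Among 23 genes of the retinoid cycle and retinol transport, 3 rose (13.0%) and 1 fell, with a median of -0.27. The gene stra6, whose product is the membrane receptor that takes up retinol, rose most evenly, from 10.76, 10.77 and 10.91 to 12.17, 12.00 and 12.17, by 1.30 (SE 0.08, adjusted p = 0.00036). Then came rgrb, an opsin relative of the pigment epithelium and Müller glia, by 1.28 (SE 0.28, adjusted p = 0.028), and rbp3, the retinoid carrier between photoreceptors and pigment epithelium, by 1.00 (SE 0.16, adjusted p = 0.0096). The rgrb call was lost without any 1 of the 6 arrays (adjusted p up to 0.089) and that of rbp3 without 3 dpf replicate 2 or 4 dpf replicate 1, so that 1 gene of the list was called higher at 4 dpf without either of these arrays. The isomerase rpe65a, with 13.24 to 13.49 at 3 dpf and 14.03 to 14.25 at 4 dpf, differed by -0.82 and was not called. In the other direction aldh1a2, which makes retinoic acid, fell by 1.25 (SE 0.20, adjusted p = 0.0091), from 7.38, 7.42 and 7.24 to 5.83, 6.37 and 6.08.

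Immediate early and stress response genes, which neurons and other cells switch on within minutes of stimulation, rose in 10 of 80 cases (12.5%) and fell in none. The median was -0.26, and 61 of the 80 had a higher mean at 4 dpf. The transcription factor gene egr1 had 4.81, 4.92 and 5.76 at 3 dpf and 7.57, 7.79 and 7.46 at 4 dpf, a rise of 2.44 (SE 0.40, adjusted p = 0.01). The activity-dependent neuronal factor npas4a rose from 5.99, 5.40 and 5.35 to 8.10, 7.62 and 7.64, by 2.21 (SE 0.20, adjusted p = 0.0013). The others were the phosphatase dusp5 at 1.87 (SE 0.27, adjusted p = 0.0064), ier2a at 1.76 (SE 0.26, adjusted p = 0.0074) and egr4 at 1.74 (SE 0.17, adjusted p = 0.0016), all as rises. These 5 were called whichever array was left out, and the list count lay between 7 and 11. At 5 dpf npas4a was at 8.55, 8.35 and 8.45 and dusp5 at 8.97, 9.91 and 9.52, neither called against 4 dpf.

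Circadian clock genes rose in 4 of 38 cases (10.5%, against 1.60% of all genes) and fell in 1, with a median of -0.38. The 4 rises lay near the threshold, at adjusted p of 0.023 to 0.046, and fits with 1 array left out often lost them. The cryptochrome gene cry1b had 5.85, 3.68 and 4.26 at 3 dpf and 6.98, 6.45 and 7.24 at 4 dpf, a rise of 2.29 (SE 0.54, adjusted p = 0.033). Replicate 1 lay above the other 3 dpf arrays and nearest to the 4 dpf ones. The same order of the 3 dpf arrays held for the repressor bhlhe40 (11.86, 9.86 and 11.01, against 12.54 to 12.81 at 4 dpf), whose first array was also its highest. The rise of bhlhe40 was 1.75 (SE 0.43, adjusted p = 0.04), of cry2 1.73 (SE 0.45, adjusted p = 0.046) and of the light-induced period gene per2 1.21 (SE 0.25, adjusted p = 0.023). Both probe sets of per2 and of cry2 were called. The activator bmal2 fell by 1.12 (SE 0.22, adjusted p = 0.018), and it was dim on all arrays at 3.62 to 5.30.

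Without 3 dpf replicate 1, 9 clock genes were called higher at 4 dpf. There was none when 3 dpf replicate 3 or 4 dpf replicates 1 or 3 were dropped singly, 1 when replicate 2 of any age was dropped, and 2 when 5 dpf replicates 1 or 3 were. Leaving out 1 of these arrays at a time took the adjusted p of the 4 rises to at most 0.14. The bmal2 call was lost without 3 dpf replicate 2 or 3 or 4 dpf replicate 1 or 2 (adjusted p up to 0.068). The cry2 call was also lost with the replicate number as a block on the 6 arrays (adjusted p = 0.074).

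The 3 dpf replicate 1 array stood out in the same way across the calls. In 190 of the 251 probe sets higher at 4 dpf it was the highest of the 3 dpf arrays, against 27.2% of all probe sets, and it lay a median of 0.44 above the mean of the other 2. Among the 258 higher at 3 dpf it was the highest in 112, and its median excess was 0.11. Without it, 275 probe sets were higher at 4 dpf and 225 at 3 dpf. No label sets this array apart from the other 3 dpf arrays.

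Neuronal genes changed in both directions and in small numbers. Of 42 inner retinal neuron genes, 3 rose (7.14%) and 2 fell, with a median of 0.07. The calcium-binding cabp5b, found in bipolar cells in mammals, rose from 10.07, 9.02 and 9.17 to 11.28, 11.42 and 11.25, by 1.90 (SE 0.32, adjusted p = 0.011). The calcium buffer pvalb9 rose by 1.41 and the synuclein sncgb, a ganglion cell gene in mammals, by 1.19 (SE 0.23, adjusted p = 0.017). Of these 3 calls, that of cabp5b was kept whichever array was left out, that of pvalb9 was lost without any 1 of the 3 dpf arrays or 4 dpf replicate 2 or 3 (adjusted p up to 0.082), and that of sncgb without 3 dpf replicate 3 or 4 dpf replicate 1 or 2 (up to 0.062). The 2 that fell were dlx2a, with the arch factors above, and the calcium buffer pvalb7, from 4.08 to 4.33 at 3 dpf to 2.40 to 2.45 at 4 dpf. The pvalb7 difference of 1.75 was 0.18 with signals under 4 set to 4, and its call was lost. The intermediate filament gene inaa, a neuronal cytoskeleton gene, rose from 9.98, 9.92 and 9.69 to 11.67, 11.59 and 11.28, by 1.65 (SE 0.13, adjusted p = 0.00083), while the tubulin gene tubb5 fell by 1.07 (SE 0.14, adjusted p = 0.0043), below the 2-fold limit without 3 dpf replicate 1.

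Ion channels were called in 4 of 36 cases, all higher at 4 dpf (11.1%, against 1.60% of all genes). The potassium channel gene kcnh6a rose from 4.14, 4.10 and 3.68 to 5.65, 5.66 and 5.43, by 1.61 (SE 0.20, adjusted p = 0.0039). The sodium channel subunit scn3b rose by 1.20, the calcium channel cacna1ha by 1.08 and the potassium channel kcnb2a by 1.07 (adjusted p = 0.03, 0.029 and 0.014). The scn3b call was lost without 3 dpf replicate 2 or 3 or any 1 of the 4 dpf arrays, that of cacna1ha without any 1 of the 3 dpf arrays or 4 dpf replicate 1 or 3, and that of kcnb2a without 3 dpf replicate 3 or 4 dpf replicate 1 (adjusted p up to 0.092, 0.1 and 0.052). Without 3 dpf replicate 2 or 3 or 4 dpf replicate 1 or 3, 2 of the 4 channels were called. Of 49 synaptic and transmitter receptor genes 1 rose, the glycine receptor subunit glra3 by 1.11 (SE 0.18, adjusted p = 0.0094). The vesicular transporter family gene slc6a17, expressed in neurons of mammals, rose by 1.13 (SE 0.19, adjusted p = 0.011), and the hypoxia-inducible factor epas1b by 1.61 (SE 0.23, adjusted p = 0.007).

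Genes of the liver and pancreas lists were present in the eye samples and varied between arrays of one age. Of 75 liver genes, 3 rose (4.00%, against 1.60% of all genes), 1 fell, and 57 had a higher mean at 4 dpf. The 3 were the arginase gene arg2, ambp and hp. The 1 that fell was the apolipoprotein apoea, by 1.66, which was also the only call among 25 Müller glia genes. That call was lost without any 1 of the 4 dpf arrays (adjusted p up to 0.098). Without 3 dpf replicate 2 or 3, any 1 of the 4 dpf arrays or 5 dpf replicate 1, 1 liver gene was called higher at 4 dpf. Their mean signal was 4.45 to 5.38 on the 3 dpf arrays and 5.00 to 5.74 on the 4 dpf arrays, so the ages overlapped. The plasma protein gene ambp rose from 5.77, 4.82 and 3.80 to 8.31, 8.07 and 8.04, by 3.34 (SE 0.50, adjusted p = 0.0076), and was called whichever array was left out. Haptoglobin, hp, rose by 1.76 (SE 0.46, adjusted p = 0.047), and its call was lost without any 1 of the 6 arrays or 5 dpf replicate 1 (adjusted p up to 0.14). Outside the list, crp, which encodes C-reactive protein, was called with a 3 dpf mean near the floor. Its signals were 2.72, 2.93 and 1.72 at 3 dpf and 7.57, 7.13 and 5.71 at 4 dpf, a rise of 4.35 (SE 0.92, adjusted p = 0.024), and at 5 dpf they ran from 4.33 to 7.69. With signals under 4 set to 4 the crp rise was 2.80 and was not called (adjusted p = 0.18). The crp call was also lost without any 1 of the 3 dpf arrays or 4 dpf replicates 1 or 2 (adjusted p up to 0.084).

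Liver markers were lowest in replicate 3 at both ages. The liver fatty acid binding protein fabp10a, at 3.67, 3.73 and 3.11 and then 6.83, 7.26 and 5.33, differed by -2.97 and was not called (adjusted p = 0.078), nor was the transferrin gene tfa, at 9.97, 9.43 and 7.39 and then 10.33, 10.86 and 8.05. With the replicate number as a block on the 6 arrays, 11 liver genes and 3 pancreas genes were higher at 4 dpf, and fabp10a passed (adjusted p = 0.009). Among 39 pancreas genes in the fit of all 9 arrays without the block, the elastase gene ela2l was the only one called, with a rise of 2.78 (SE 0.74, adjusted p = 0.049). Its signals were 3.01, 5.16 and 3.14 at 3 dpf and 6.74, 7.21 and 5.68 at 4 dpf. The call was lost without 3 dpf replicate 1 or 3, any 1 of the 4 dpf arrays or 5 dpf replicate 2 (adjusted p up to 0.15), and the trypsin gene prss1, at 5.71 to 8.62 and 7.14 to 8.28, overlapped between the ages.

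The largest rise in the liver list was that of arg2, which had 7.77, 3.46 and 4.36 at 3 dpf and 9.03, 9.20 and 9.05 at 4 dpf, a rise of 3.90 (SE 0.99, adjusted p = 0.043). The 3 dpf arrays were spread widely, with replicate 2 the lowest, where the liver markers above were lowest in replicate 3. Replicate 1 was the highest, and the call was kept only without that array among the 9 single leave-outs (adjusted p up to 0.12). The clusterin relative clul1, expressed in cones in mammals, rose from 9.47, 7.03 and 7.23 to 11.69, 10.97 and 10.83, by 3.25 (SE 0.66, adjusted p = 0.02), a call lost without 3 dpf replicate 2 or 3 or any 1 of the 4 dpf arrays (up to 0.074). The cathepsin gene ctsll rose by 2.90 (SE 0.76, adjusted p = 0.048), lost without all but 3 dpf replicate 1 and 5 dpf replicate 3 (up to 0.15).

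Steadier rises were those of the BCL2 family gene bokb, from 5.29, 4.43 and 4.34 to 7.36, 7.50 and 7.43, by 2.75 (SE 0.23, adjusted p = 0.0011), and of the syntabulin gene sybu, which links cargo to kinesin in mammalian neurons, by 2.53 (SE 0.37, adjusted p = 0.007). The translation elongation factor gene eef1a1b rose by 2.42 (SE 0.32, adjusted p = 0.0053), from 5.91 to 7.21 on the 3 dpf arrays to 8.69 to 9.02. Genes known only by clone names also rose. The 3 probe sets of si:ch73-6k14.2 were all called, at rises of 2.62 for the dimmest and of 1.57 and 1.71 for the brighter ones, and si:ch211-237l4.6 rose by 2.51. Of the 4 probe sets of si:dkey-7c18.24, the brightest rose by 3.62 (adjusted p = 0.026) and another by 3.83 (SE 0.93, adjusted p = 0.038), while the dim ones, at -0.79 and -0.02, were not called. The call at 3.83 was lost without 3 dpf replicate 2, any 1 of the 4 dpf arrays or 5 dpf replicate 2 (adjusted p up to 0.12).

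Cell division genes are active in any dividing cells of the eye samples, the stem cells of the retinal margin among them. None of 69 DNA replication genes was called, with a median of 0.06, and pcna, the sliding clamp of DNA polymerase, was at 12.43 to 12.63 at 3 dpf and 12.34 to 12.50 at 4 dpf. Of 77 mitosis genes 1 was called, the kinesin kif20a, which was higher at 4 dpf by 2.11 (SE 0.45, adjusted p = 0.024). Its signals of 11.04, 9.11 and 9.60 and then 11.95, 12.28 and 11.86 went against most of the list, in which 59 of 77 differences were above 0 (76.6%, against 46.9% of all genes), with a median of 0.22 and array means of 6.64 to 6.82 at 3 dpf and 6.51 to 6.58 at 4 dpf that did not overlap. The other, dimmer probe set of kif20a went the other way. It was higher at 3 dpf by 0.47 (adjusted p = 0.018), under the 2-fold limit, with means of 3.69 and 3.23. The kif20a call was lost without 3 dpf replicate 2 or 3 or any 1 of the 4 dpf arrays (adjusted p up to 0.082). Among 74 progenitor and neurogenesis genes 1 was called, mab21l2, a gene needed for eye growth in vertebrates, which fell from 8.77, 7.92 and 8.70 to 6.78, 7.01 and 6.87, by 1.58 (SE 0.26, adjusted p = 0.0099). Without 3 dpf replicate 2 there were 3 such calls and without 3 dpf replicate 3 there were 2.

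With 3.84% of all genes called, a short list could well hold no call. No member was called in 11 of the 43 lists in the fit of all 9 arrays without the replicate block. Besides DNA replication and the photoreceptor factors these were the lens (19 genes, median -0.16), Notch signalling (37, 0.04), melanin synthesis (19, -0.07), iridophores and xanthophores (17, 0.01), red blood cells (28, 0.16), blood vessels (24, -0.05), oxidative phosphorylation (99, -0.08) and the cytosolic (72, -0.02) and mitochondrial ribosomal proteins (59, 0.04). The lens beta crystallins crybb1 and cryba4 were at 14.03 to 14.92 on all 6 arrays, while the alpha crystallin cryaa, at 6.74, 7.26 and 7.62 and then 8.27, 8.51 and 9.10, differed by -1.42 without passing (adjusted p = 0.12, and 0.0044 with the replicate number as a block on the 6 arrays). Without the block, cryaa was also called on the 6 arrays alone and when 5 dpf replicate 1 was left out. The red blood cell and blood vessel lists each had at most 1 call in the fits with 1 array left out. With that block 1 gene each of 3 further lists was called higher at 3 dpf, the heme synthesis gene alas2 of red blood cells at 1.45 (adjusted p = 0.024), the vessel gene plvapb at 1.04 (adjusted p = 0.0044) and the cytochrome oxidase subunit cox6b1 at 1.03 (adjusted p = 0.013). The ribosomal gene rps2 stayed within 14.66 and 14.78. Among splicing factors 120 of 140 differences were above 0 (85.7%, against 46.9% of all genes), with a median of 0.22 and 1 call, rbm4.1 at 1.00, lost without 3 dpf replicate 3 or 4 dpf replicate 3 (adjusted p up to 0.059).

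**Figure D4:**
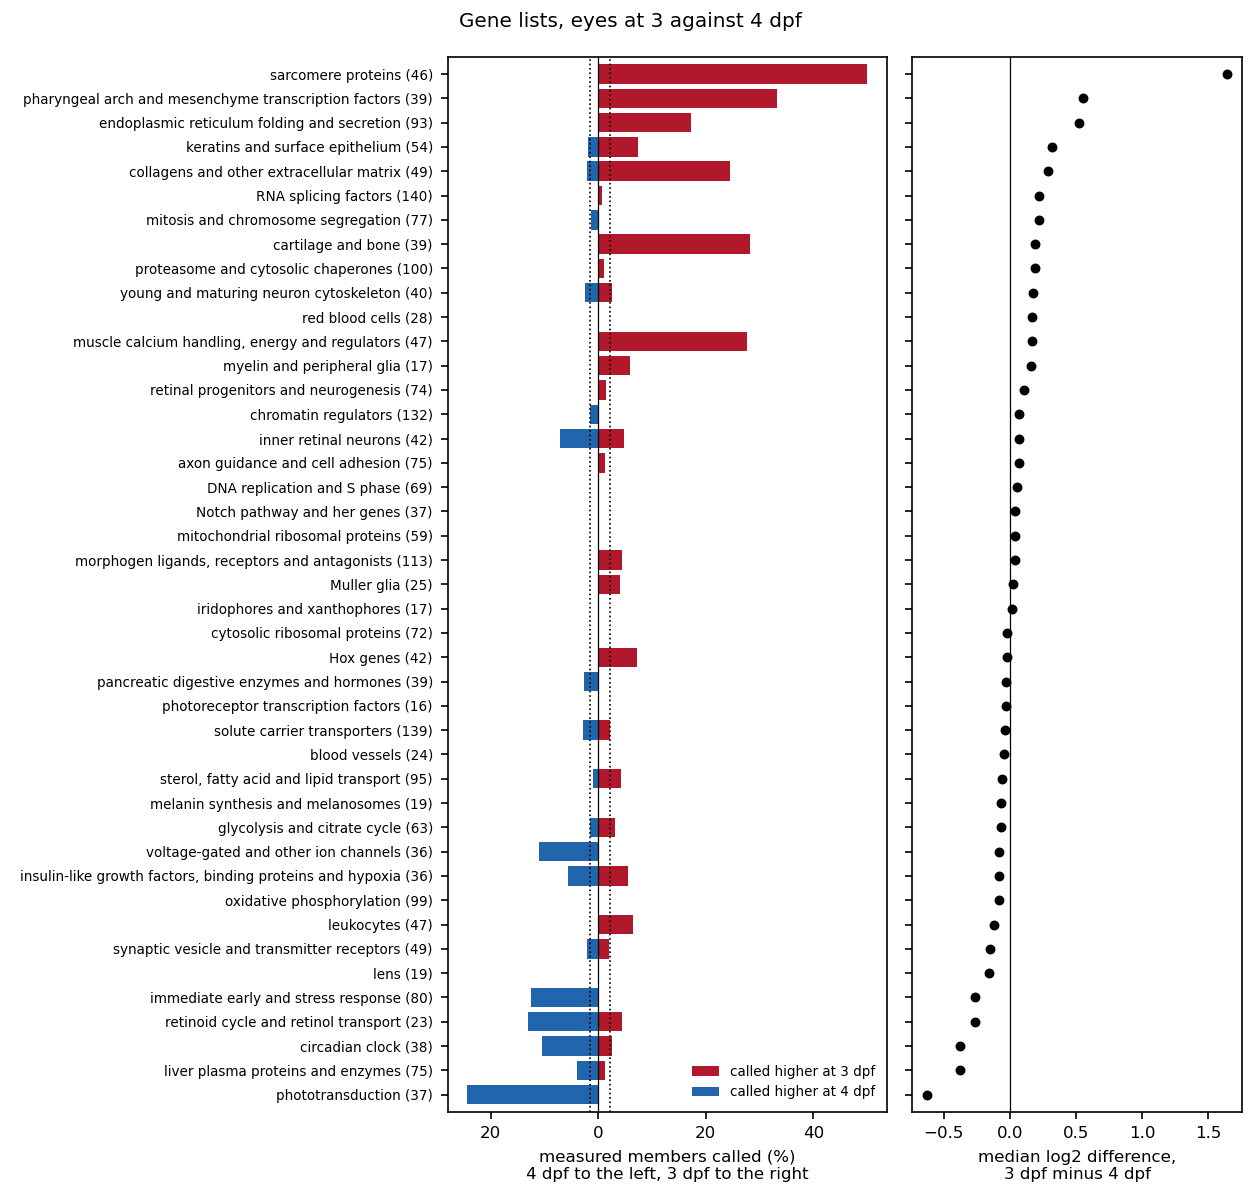
Left, the share of measured members of 43 gene lists called higher at 3 dpf (red, to the right) and at 4 dpf (blue, to the left), in percent, with the number measured in brackets and dotted lines at the 2.24% and 1.60% of all genes. Right, the median log2 difference of each list, 3 dpf minus 4 dpf, which runs from 1.64 for sarcomere proteins to -0.62 for phototransduction.

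In the leukocyte list 3 of 47 genes were higher at 3 dpf (6.38%, against 2.24% of all genes). However, 32 had a higher mean at 4 dpf and the median was -0.12. The 3 were the collagen-degrading protease ctsk at 1.42, best known from osteoclasts, the chemokine cxcl12b at 1.40, made by stromal cells, and the actin nucleator subunit arpc1b at 1.14. The ctsk call was lost without 3 dpf replicate 1 or 2 or any 1 of the 4 dpf arrays (adjusted p up to 0.07), that of cxcl12b without any 1 of the 3 dpf arrays or 4 dpf replicate 2 or 3 (up to 0.081), and that of arpc1b without 3 dpf replicate 2 or 3, any 1 of the 4 dpf arrays or 5 dpf replicate 1 (up to 0.12). Of the leukocyte markers, coro1a and lcp1 differed by -0.55 and -0.92 and were not called.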

How the data were processed

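Whole eyes were measured on 9 Affymetrix Zebrafish Genome Arrays, 3 per age, after total RNA extraction and two-cycle biotin labelling. The authors normalized and summarized the arrays with GCRMA (version not given in the sources used here) and deposited log2 signals, 1 per original probe set. Whether all 9 arrays were normalized together is not stated. Signals were used as deposited, without the 115 control probe sets. Array number limits precision.

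With limma 3.58.1 in R 4.3.3 (lmFit, eBayes), all 9 arrays were fitted by age, and p-values were adjusted by Benjamini-Hochberg over 15502 probe sets. A call needed an adjusted p under 0.05 and a log2 difference of at least 1. Symbols came from the platform annotation, updated through Entrez identifiers: 10802 probe sets had 1 symbol, 135 several and 4680 none, and only the first were named. In gene lists each gene is its brightest probe set. The genes named are the 15 largest called differences each way, up to 5 called members of each list each way, the 2 brightest of a list without calls, and the markers. Members, lists and rule were chosen with earlier results of these data known. No list was tested as a set. The code was checked on simulated data.

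Replicates with one number deviated together at 3 and 4 dpf (correlations of residuals 0.60, 0.50 and 0.44), so the numbers were taken to pair these arrays, from the data and not the labels. Alternatives were the 6 arrays alone, the block, other normalizations, filters and limits, and leaving out each array.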

Additional observations from a re-analysis of the deposited data

How the results depend on the processing

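With all 9 arrays 509 probe sets were called, and with 1 array left out 329 to 527 (188 to 263 higher at 3 dpf and 131 to 275 higher at 4 dpf). Between 311 and 492 of the 509 were called again in these fits. Of the named genes, 77 of 125 called ones were called whichever array was left out. With signals under 4 set to 4 the counts were 286 in all, 157 and 129, and 50 of the 125 named calls were lost. Not all of these were dim. The differences of clul1 (-3.25) and ckma (2.84), with no signal under 4, were unchanged, but their adjusted p rose to 0.059 and 0.078. That fit also estimated anew the spread shared by all probe sets, so its losses do not measure the floor alone. With no fold limit they were 2077, 960 and 1117. Testing only probe sets with a mean signal of at least 5 over the 9 arrays gave 170 higher at 3 dpf and 251 higher at 4 dpf. Of these 421 calls, 394 were among the 509, so the 251 are not the same probe sets as before. Testing 1 probe set per gene left 338 in all and 141 higher at 4 dpf. With the replicate block the counts were 559 on all 9 arrays and 621 on the 6 arrays alone. The 9-array block also pairs the 5 dpf arrays by number, which the residuals bear out only for replicate 1. Its correlations with 3 and 4 dpf were 0.54 and 0.72, against 0.01 and -0.07 for replicate 2 and 0.04 and -0.03 for replicate 3. Across numbers, 5 dpf replicate 3 had 0.46 and 0.53 with replicate 2 of 3 and 4 dpf. Likewise 5 dpf replicate 2 had 0.21 and 0.50 with replicate 3 of these ages. A fit with these 2 numbers crossed was not run. The paired fit on the 6 arrays removed the call of cry2 from the 125 named genes, and on all 9 arrays the call of 4, and changed no other call among the named called genes. The 6 arrays alone gave 512, with 11 of the named calls lost, quantile normalization 487, median centring 512, and trended robust eBayes 550. No named call reversed in direction. Under 4, signals say little about level, and folds of transcripts near that floor are uncertain.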
